A study of Mus musculus with 2 samples.

Results

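The postsynaptic density of excitatory synapses is built on layered scaffold proteins. The Dlg genes encode membrane-associated guanylate kinases that hold glutamate receptors and adhesion proteins at the membrane, with Dlg4 encoding PSD-95, Dlg2 PSD-93, Dlg3 SAP102 and Dlg1 SAP97. Shank1, Shank2 and Shank3 encode large proteins that lie deeper in the density and connect the Dlg layer, through other linkers, to Homer proteins and actin. Homer1, Homer2 and Homer3 encode adaptors that bind Shank proteins, group 1 metabotropic glutamate receptors and calcium channels of internal stores. The peaks described here are those of 1 CUT&Tag library made with an anti-FLAG antibody, whose authors' annotation carried 1 of these 10 gene symbols. The peaks were thus chosen by the gene that the authors assigned to them, and the gene families were chosen with earlier results of the same data known, including a very large peak at Dlg4. There were 235 such peaks among 99782 annotated peaks of 99797 in all, or 0.236% of the annotated peaks. Their share of the total signal summed over annotated peaks was 0.266%.

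The study asked where PARIS, a zinc-finger repressor, sits on chromatin in mouse brain. Its 2 samples, from untreated CamK-PARIS mice on the C57BL/6J strain, were both made from hippocampus: 1 library with anti-FLAG, which captures the tagged PARIS protein, and 1 with IgG as the negative control. Both antibodies were used on the same genotype. The promoter behind the genotype's name and the age, sex and number of animals are not given in the sources used here. In CUT&Tag an antibody brings a transposase to its target, which cuts and tags the DNA nearby. Each peak carries the authors' maximum signal (highest coverage) and total signal (coverage summed over its bases), and sequencing depth is unknown. With 1 library per antibody, no value has a replicate error, the peaks of a gene are not replicates, and no difference between antibodies was tested. The files hold no expression values, so the hippocampal identity of the tissue was not tested with marker genes.

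Windows of 200 bases that hold a searched motif are shown first, on the plus strand of mm10. Capitals mark matches on either strand to TATTTTT or TATTTTG (the insulin response sequence, reported as the PARIS binding element), TGACGTCA (the cyclic AMP response element, CRE), TGANTCA (the core bound by AP-1 factors) or GGGCGG (the GC box bound by Sp and Krüppel-like factors). No searched motif contains another. The windows were picked after the values had been seen, and each lies outside the untranslated regions of GENCODE M21 and the exons of RefSeq transcripts. The window of Dlg4 is the nearest such window to the highest point of its largest peak, and those of Shank3 and Homer2 come from peaks over a transcript start. Both printed Dlg2 windows with an AP-1 core come from the highest peaks assigned to it. The AP-1 windows of Dlg3 and Dlg1 come from the highest peak of each gene, for Dlg3 as the nearest window outside exons. The remaining 5 hold the insulin response sequence in peaks that were not flat in height. Every window printed holds a searched motif, and windows outside exons without one are not printed. Those left out include windows of other high peaks: of Shank1 (maximum signals of 609 and 299), Homer1 (290) and Dlg2 (215 and 202). The summit windows of the Shank1 peak of 609 and the Homer1 peak of 290 do hold a GC box. Some windows outside exons that hold a motif are not printed either. An AP-1 core lies in those of Dlg2 peaks of 53 and 164 and of Shank2 peaks of 78 and 131. A GC box lies in those of a Dlg3 peak of 219 and of Shank2 peaks of 166 and 24.
Dlg4 chr11:70029287-70029486: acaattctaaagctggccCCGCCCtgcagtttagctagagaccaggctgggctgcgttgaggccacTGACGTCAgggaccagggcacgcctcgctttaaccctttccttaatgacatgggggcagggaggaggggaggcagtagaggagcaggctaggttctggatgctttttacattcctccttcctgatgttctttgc
Shank3 chr15:89499920-89500119: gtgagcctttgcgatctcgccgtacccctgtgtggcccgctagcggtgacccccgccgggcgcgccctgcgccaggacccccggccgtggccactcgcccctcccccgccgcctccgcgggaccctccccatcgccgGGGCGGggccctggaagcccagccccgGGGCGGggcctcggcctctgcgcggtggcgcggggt
Homer2 chr7:81706980-81707179: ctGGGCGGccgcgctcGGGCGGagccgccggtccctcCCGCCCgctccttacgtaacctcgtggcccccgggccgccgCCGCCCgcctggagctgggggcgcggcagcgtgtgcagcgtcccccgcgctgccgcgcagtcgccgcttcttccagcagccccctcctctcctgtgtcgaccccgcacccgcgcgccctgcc
Dlg2 chr7:91893960-91894159: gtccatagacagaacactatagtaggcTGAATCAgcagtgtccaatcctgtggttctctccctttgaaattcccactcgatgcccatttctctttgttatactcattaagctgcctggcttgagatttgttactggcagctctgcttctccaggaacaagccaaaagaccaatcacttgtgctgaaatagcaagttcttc
Dlg2 chr7:91974720-91974919: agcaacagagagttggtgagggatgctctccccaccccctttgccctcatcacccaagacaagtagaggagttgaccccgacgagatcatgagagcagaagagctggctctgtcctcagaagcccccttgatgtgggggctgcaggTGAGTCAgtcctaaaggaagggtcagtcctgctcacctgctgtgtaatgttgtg
Dlg3 chrX:100795534-100795733: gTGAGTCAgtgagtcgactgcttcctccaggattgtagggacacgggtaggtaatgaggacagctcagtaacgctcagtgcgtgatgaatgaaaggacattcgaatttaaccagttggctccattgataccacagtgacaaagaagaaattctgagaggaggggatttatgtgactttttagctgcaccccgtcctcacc
Dlg1 chr16:31776031-31776230: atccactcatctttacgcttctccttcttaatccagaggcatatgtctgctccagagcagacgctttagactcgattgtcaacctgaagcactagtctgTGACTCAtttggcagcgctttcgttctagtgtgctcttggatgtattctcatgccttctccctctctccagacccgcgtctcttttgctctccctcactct
Dlg2 chr7:92265106-92265305: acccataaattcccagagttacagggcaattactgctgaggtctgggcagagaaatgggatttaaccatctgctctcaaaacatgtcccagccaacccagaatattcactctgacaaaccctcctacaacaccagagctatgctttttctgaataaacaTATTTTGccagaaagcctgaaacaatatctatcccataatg
Dlg3 chrX:100798346-100798545: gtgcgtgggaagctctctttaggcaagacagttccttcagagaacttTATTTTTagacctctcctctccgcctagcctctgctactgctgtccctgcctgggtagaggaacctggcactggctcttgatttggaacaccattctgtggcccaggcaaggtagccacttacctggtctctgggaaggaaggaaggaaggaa
Homer1 chr13:93299747-93299946: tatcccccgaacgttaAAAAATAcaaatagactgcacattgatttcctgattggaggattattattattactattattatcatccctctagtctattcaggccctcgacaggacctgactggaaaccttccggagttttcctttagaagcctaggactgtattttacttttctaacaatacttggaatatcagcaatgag
Homer1 chr13:93312821-93313020: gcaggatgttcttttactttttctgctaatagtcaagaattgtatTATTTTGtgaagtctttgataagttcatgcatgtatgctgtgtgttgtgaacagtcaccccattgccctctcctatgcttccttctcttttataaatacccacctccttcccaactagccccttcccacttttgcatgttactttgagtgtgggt
Homer3 chr8:70273691-70273890: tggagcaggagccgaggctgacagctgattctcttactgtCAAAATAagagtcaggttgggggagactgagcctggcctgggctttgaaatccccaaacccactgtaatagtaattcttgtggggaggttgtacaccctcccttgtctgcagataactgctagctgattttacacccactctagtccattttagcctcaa

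All 10 genes had at least 1 assigned peak, against 71.0% of the 21911 protein-coding genes of GENCODE M21. The number per gene ran from 5 for Homer3 to 89 for Dlg2, with a median of 11.5 over the 10 genes and of 2 over all protein-coding genes. Dlg2 and Shank2, the 2 longest genes of the set, held 152 of the 235 peaks (64.7%). Dlg2 ranked 6 and Shank2, with 63 peaks, ranked 25 among protein-coding genes by number of peaks. Shank3 had 16 assigned peaks, Shank1 and Dlg3 had 12 each, and Dlg1 had 11. Homer1 had 10, Homer2 had 9 and Dlg4 had 8. The scaffold genes were longer than most, with a median length of 83.07 kb against 17.43 kb over all protein-coding genes, and the part of length in these counts was not tested.

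**Figure D1:**
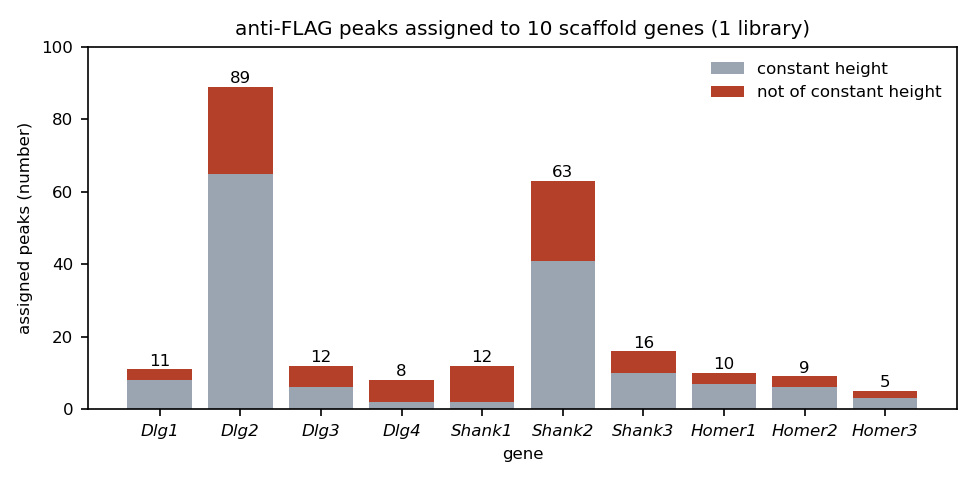
Number of peaks assigned to each gene (y axis) by gene (x axis) in the anti-FLAG library, with bars split into peaks of constant height (grey) and other peaks (red). Dlg2 and Shank2 hold 89 and 63 of the 235 peaks, and in Dlg4 and Shank1 most peaks are not of constant height.

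**Figure D2:**
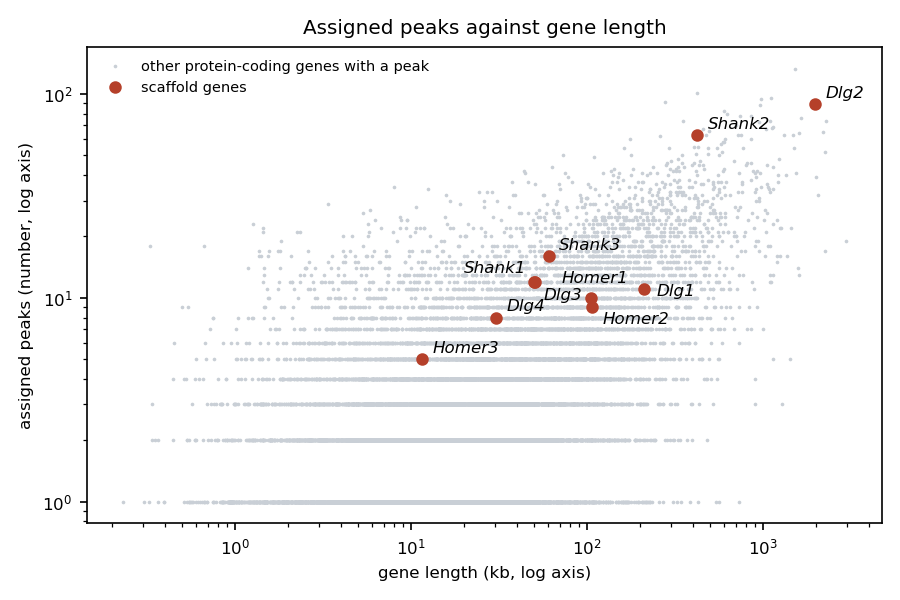
Assigned peaks per gene (log axis) against gene length in kb (log axis) for protein-coding genes with at least 1 peak, with the scaffold genes in red. Dlg2, at 1973 kb, has the most peaks of the 10 and Homer3, at 11.54 kb, the fewest.

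Many peaks of this library have flat coverage. A peak was called constant in height when its total signal was at least 99% of its maximum signal times its width. Of the 235 peaks, 150 (63.8%, Wilson 95% interval 57.5 to 69.7) were of constant height, close to the 63.3% of all annotated peaks. The 2 genes with the highest signal stood at the low end, with 2 of 8 peaks of constant height in Dlg4 and 2 of 12 in Shank1. In Dlg2 65 of 89 were of constant height, in Shank2 41 of 63 and in Shank3 10 of 16. Dlg1 had 8 of 11, Dlg3 6 of 12, Homer1 7 of 10, Homer2 6 of 9 and Homer3 3 of 5. Among the 85 other peaks the maximum signal had a median of 152 and the width a median of 672 bp, against 93 and 218.5 bp for those of constant height. The same 2 medians over all annotated peaks were 135 and 604 bp for other peaks and 91 and 247 bp for constant-height peaks.

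Dlg4, whose product PSD-95 is the most familiar core scaffold of the excitatory synapse, had the highest peak of the set. The gene (ENSMUSG00000020886, mm10 chromosome 11, 70016942 to 70047522, plus strand) carried 8 peaks with maximum signals of 66 to 887 and a median of 156. The largest, at 70026828 to 70030165, was 3338 bp wide, reached 887 and ranked 19 of all annotated peaks by maximum and 5 by total signal. It held 76.7% of the total signal assigned to Dlg4. Its highest point lay 12703 bp inside the gene, in an untranslated exon and 68 bp upstream of the start of the coding transcript Dlg4-221, and the peak spanned the starts of 8 protein-coding Dlg4 transcripts. The window printed for it above holds a CRE 134 bp and a GC box 182 bp upstream of the start of Dlg4-218, 288 and 337 bp from the point of maximum signal. A second peak, at 70017926 to 70019216 with a maximum of 174, spanned the starts of 5 coding transcripts near the 5′ end. No peak covered the outermost annotated start of the gene, and the nearest began 984 bp inside it. A further peak of 174, at 70038967 to 70039222, had its maximum in a coding exon. By number of peaks Dlg4 ranked 2708 of the protein-coding genes, but by maximum signal it ranked 17.

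Shank1, which encodes a scaffold of the deeper postsynaptic density, had the largest part of its length covered by peaks. The gene (chromosome 7, 44310253 to 44360572, plus strand) had 12 peaks that covered 23.9% of the gene body, and Dlg4 had 22.1% of its body covered, against a median of 1.19% over all protein-coding genes. Its largest peak, at 44335345 to 44338003, was 2659 bp wide with a maximum of 609 and a total signal of 432471, rank 69 of the list. Its maximum lay in an intron, 26235 bp from the 5′ end and 442 bp downstream of the start of Shank1-205, a transcript annotated as non-coding. The next highest, at 44351052 to 44352615, reached 299 with its maximum in a coding exon. Peaks of 248 and 257 followed in the last intron. Toward the 5′ end the signal was lower, with 161 at 44314259 to 44315216 and none within 4006 bp of the outermost start. Of the 12 peaks, 2 lay within 1 kb of an annotated start, both of non-coding transcripts.

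Shank2 (chromosome 7, 144001928 to 144424494, plus strand) showed many moderate peaks and none that stood out. Its 63 peaks had maximum signals from 16 to 176 with a median of 107, and the peak with the largest total signal, at 144278100 to 144279035 in intron 14 of 22, held 5.62% of the sum. The highest, at 144120269 to 144120462 in intron 9 of 22, reached 176. Introns held 51 of the peaks. Within 1 kb of a start lay 6 peaks: 2 upstream of Shank2-202 with maxima of 70 and 104, 2 upstream of Shank2-205 with 122 and 71, and 2 around the non-coding Shank2-204 with 173 and 92. The first 4 were of constant height. The nearest peak to the outermost start was 27424 bp away, so all 6 lay at internal starts.

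Shank3 (chromosome 15, 89499623 to 89560261, plus strand), whose loss is a cause of Phelan-McDermid syndrome in people, had its highest peak directly over the gene start. This peak, at 89497925 to 89500548, was 2624 bp wide with a maximum of 261 and ranked 187 of the list by total signal. It spanned the starts of the coding transcripts Shank3-201 and Shank3-203, and its summit window had a GC content of 84.5% and 32 CpG dinucleotides. The median CpG count was 2 over all annotated peaks and 10 over those within 1 kb of a start and not of constant height. Over the 19 peaks of that kind assigned to the 10 scaffold genes it was 5. The Shank3 sequence above comes from the peak over the gene start, 406 bp downstream of its summit, and holds 2 GC boxes. A neighbour at 89496013 to 89496702, upstream of the gene, reached 226. Toward the 3′ end, a peak at 89547960 to 89549017 with its maximum in a coding exon reached 220. The remaining 13 peaks stayed at or below 148. At the internal start of Shank3-207 lay 2 constant-height peaks, with maxima of 72 and 125. In all 7 of the 16 peaks were within 1 kb of a start, the most of any gene here.

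Dlg2 (chromosome 7, 90476672 to 92449247, plus strand) encodes PSD-93 and is the longest gene of the set. Its 89 assigned peaks had maximum signals from 9 to 240 with a median of 97, and the largest held 4.28% of the total signal of the gene. Per length the gene was not dense: 95 peaks overlapped its body, or 4.82 per 100 kb, 1.11 times the mean of chromosome 7. Of these, 8 were assigned to Tmem126b or 4930567K12Rik, whose models overlap or adjoin Dlg2. They include the peak over the outermost start of Dlg2, assigned to Tmem126b, with a maximum of 293, and another of 253, both higher than any peak assigned to Dlg2. The 2 highest assigned to Dlg2, at 91893838 to 91894698 (240, intron 10 of 27) and at 91974438 to 91974944 (228, intron 14 of 27), both carry an AP-1 core in the windows shown. They lay 168331 and 87464 bp upstream of the start of Dlg2-202. At the start used by Dlg2-204 and Dlg2-201, a constant-height peak of 74 lay 260 bp upstream and a peak of 142 lay 461 bp downstream. The peak nearest to a start, at 91671985 to 91672952, reached 102 over that of Dlg2-210, a non-coding transcript. In 5 equal segments of the gene body, all overlapping peaks numbered 7, 20, 18, 22 and 28 from the 5′ end. By summed total signal Dlg2 ranked 16, with 2244492. Directly above it stood Tenm4 (2305369), and directly below it Phactr1 (2236600) and Anks1b (2224828).

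Dlg1 (chromosome 16, 31663443 to 31875129, plus strand), which encodes SAP97, had 1 peak at its 5′ end and the other 10 between 45623 and 141279 bp inside the gene. The start peak, at 31663388 to 31664696, had a maximum of only 112 but was 1309 bp wide and spanned the starts of 5 coding transcripts. Its summit window had 79.0% GC and 29 CpG dinucleotides. The highest peak, with 169, lay in intron 6 of 25 at 31775655 to 31776885. In the window shown an AP-1 core lies 3 bp from the middle of its region of maximum signal, 31776070 to 31776191. No peak lay in the last of 5 equal segments of the gene.

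Dlg3 (X chromosome, 100767722 to 100818410, plus strand), which encodes SAP102, lies on a chromosome with few peaks. Its 8 peaks inside the gene gave 15.8 per 100 kb, 13.7 times the mean of the X chromosome at 1.15 per 100 kb, while the autosomes had 3.96. The highest, at 100795497 to 100795883, reached 326 and lay 979 bp upstream of the non-coding transcript Dlg3-207, and 2 neighbours within 3 kb reached 176 and 139. Another pair, with 219 and 177, lay at and just past the 3′ end, and the peak of 177 had the largest total signal of the gene. At the 5′ end 2 constant-height peaks of 106 and 89 lay 1048 and 52 bp upstream of Dlg3-201. Another peak there, at 100768721 to 100769543, was not of constant height and reached 124 at 1292 bp inside the gene. The other 4 peaks of the gene had maxima of 16 to 92.

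Homer1 (chromosome 13, 93299635 to 93405129, plus strand), whose short product Homer1a is induced by activity, was marked at its 5′ end. The highest of its 10 peaks, at 93303550 to 93304586, reached 290 and spanned the starts of 3 coding transcripts. Its summit window had 76.5% GC and 29 CpG dinucleotides. A peak of 133 covered the outermost start, of a non-coding transcript, and a peak of 199 lay 4863 bp downstream of Homer1-202. Both of these hold an insulin response sequence in the windows shown, and the second lies in the single exon of Gm47075, an experimentally unsettled transcript model. Of 5 equal segments of the gene, the first held 6 peaks, the next 1, then 0 and 0, and the last 3, with a longest gap of 57642 bp.

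Homer2 (chromosome 7, 81600481 to 81707527, minus strand) had a similar arrangement at lower signal. Its peaks had maxima of 24 to 164, and 6 of the 7 peaks inside the gene lay in the first of 5 equal segments. The peak over the start of Homer2-201, at 81706871 to 81707295, reached 152, and its window above holds 4 GC boxes with 31 CpG dinucleotides and 80.0% GC. The highest peak of 164 lay behind the gene, inside Whamm.

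Homer3 (chromosome 8, 70282827 to 70294361, plus strand), the shortest gene of the 10, had no peak inside its body. Its 5 assigned peaks all lay upstream, 4 of them inside the neighbouring gene Sugp2. The highest, at 70273677 to 70274391, reached 259 at 9002 bp upstream of Homer3-202. It holds an insulin response sequence 56 bp from the middle of its region of maximum signal, 70273755 to 70273825. The peak nearest to the gene, 131 bp upstream, reached only 58. The assignment of the Sugp2 peaks to Homer3 follows the authors' annotation and says nothing of which gene they act on.

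**Figure D3:**
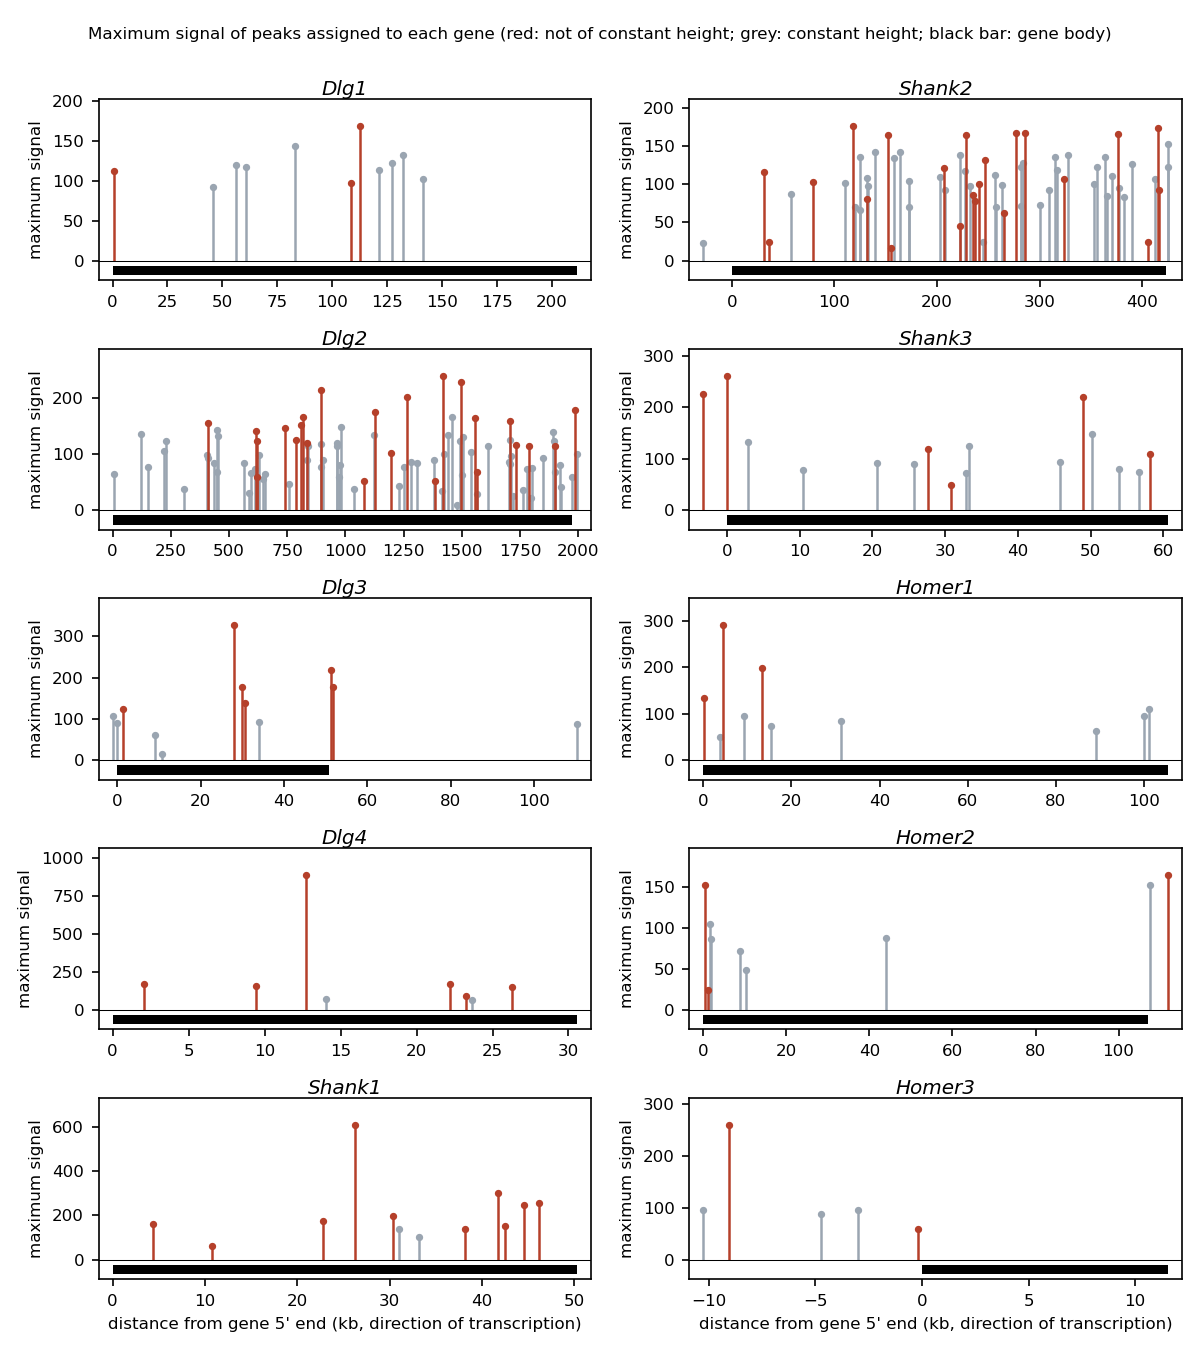
Maximum signal of each assigned peak (y axis) against the distance of its highest point from the 5′ end of the gene in kb, in the direction of transcription, 1 panel per gene, with the gene body as a black bar. The highest peaks of Dlg4 and Shank1 lie inside the gene, those of Shank3 and Homer1 at or near the 5′ end, and all 5 of Homer3 upstream.

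**Figure D4:**
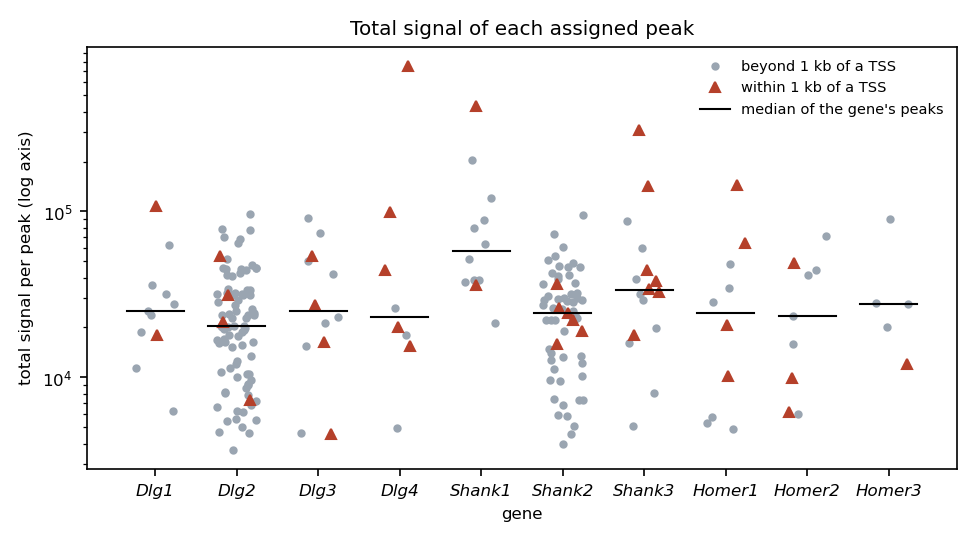
Total signal of each peak (log axis) by gene, with triangles for peaks within 1 kb of an annotated start and black lines for the median of the gene. The top point is a triangle in Dlg4, Shank1, Shank3, Homer1 and Dlg1, and a circle in Dlg2, Dlg3, Shank2, Homer2 and Homer3.

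Compared with all genes, every scaffold gene had an assigned peak within 1 kb of a transcription start site (TSS) in the authors' annotation, 10 of 10 against 41.6%. The same 10 of 10 held for peaks that were not of constant height, against 28.3%. The outermost annotated 5′ end lay in a peak for 4 of 10 genes (Dlg1, Dlg2, Shank3 and Homer1), against 20.4%. The scaffold genes have a median of 9 annotated transcripts against 3 over all protein-coding genes, and the part of this number in the counts was not tested. Of the 38 peaks near a TSS, 21 were assigned to a protein-coding transcript, 12 to processed transcripts, 4 to retained introns and 1 to a transcript outside GENCODE M21. Counting only peaks assigned to a coding transcript, 9 of 10 genes had one near a TSS, with Shank1 the exception. Of 18 RefSeq promoters found for 8 of the genes (250 bases before to 50 after the start), 6 overlapped a peak (33.3%), against 22.9% of all 32851 RefSeq promoters.

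Seen over peaks, 38 of 235 (16.2%, 12.0 to 21.4) lay within 1 kb of a TSS, near the 15.3% of all annotated peaks. The share was 6.58% (3.61 to 11.7) in Dlg2 and Shank2 together and 33.7% (24.5 to 44.4) in the other 8 genes. By family it was 12.5% (7.72 to 19.6) for Dlg, 16.5% (10.3 to 25.4) for Shank and 33.3% (18.0 to 53.3) for Homer genes. Introns held 149 peaks in the authors' classes (63.4%, 57.1 to 69.3), against 38.0% of all annotated peaks, but 34.9% (25.6 to 45.7) without Dlg2 and Shank2. Dlg2 and Shank2 alone had 78.9% (71.8 to 84.7) in introns. A further 62 peaks were in promoters (within 3 kb), 13 in exons, 9 distal intergenic and 2 in 3′ untranslated regions. Above the 90th percentile of maximum signal, 189, lay 18 of the 235 peaks (7.66%, 4.90 to 11.8), against 9.94% of all. The share was 2.63% (1.03 to 6.57) in Dlg2 and Shank2 and 16.9% (10.3 to 26.3) in the other 8 genes, on either side of that of all peaks. These 18 were 5 of Shank1, 4 of Dlg2, 3 of Shank3, 2 each of Homer1 and Dlg3, and 1 each of Dlg4 and Homer3, and none of Dlg1, Shank2 or Homer2.

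Inside gene bodies the median density over the 10 genes was 11.8 peaks per 100 kb, against 3.95 over all protein-coding genes. With only the peaks above the median maximum signal the 2 medians were 5.91 and 0, and without constant-height peaks 4.03 and 0, since 48.9% and 44.2% of all genes then had a peak in the body. Under each filter 9 of the 10 genes, all but Homer3, had one. Dlg4 had 26.2, Shank3 24.7, Shank1 23.8, Dlg3 15.8 and Shank2 14.2. Below these stood Homer1 with 9.48, Homer2 with 6.54, Dlg1 with 5.20, Dlg2 with 4.82 and Homer3 with 0. Relative to the mean of its own chromosome the density was 5.85 times as high in Shank3, 5.51 in Shank1, 4.75 in Dlg4, 3.28 in Shank2, 2.75 in Homer1, 1.51 in Homer2 and 1.46 in Dlg1. The order of these densities carries no replicate error, and the part of gene length in them was not tested. Median densities of 2 other lists of synaptic genes are given below.

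The motifs were counted in the summit windows of these genes and of all peaks. The insulin response sequence occurred in 27 of 235 windows (11.5%, 8.02 to 16.2), against 9.95% of 99705 windows over all peaks. Of the 27, 14 were in Dlg2, 4 in Dlg3, 3 each in Shank2 and Homer1, and 1 each in Dlg1, Shank1 and Homer3, and no window of Dlg4, Shank3 or Homer2 held it. In Dlg2 13 of the 14 were in constant-height peaks. The AP-1 core was found in 27 windows as well (11.5%), 15 of them in Dlg2, against 9.39% of all. The GC box was found in 14 (5.96%, 3.58 to 9.75), against 8.46%. Dlg2 and Shank2 had it in 2.63% (1.03 to 6.57) and the other 8 genes in 12.0% (6.68 to 20.8). It was found in 5 of the 19 peaks near a TSS that were not of constant height (26.3%). Over all annotated peaks of that kind it was 39.3%. No summit window held the CRE (0 of 235, upper Wilson limit 1.61%), against 0.302% of all, and the CRE printed for Dlg4 lies outside its summit window. In the 18 RefSeq promoters of the scaffold genes the GC box was found in 7 (38.9%) and the insulin response sequence in 2 (11.1%). The CRE and the AP-1 core were found in 0 of these 18, and no interval was computed for the promoter shares. The shares over all RefSeq promoters were 35.7%, 11.3%, 1.79% and 7.81%. Mean GC content of the summit windows was 48.6% ± 8.91 (SD over windows), against 49.0% ± 8.92.

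Other genes of the synapse gave the setting. Among 20 partners of these scaffolds in the postsynaptic density, such as the Dlgap linkers between Dlg and Shank proteins, 19 had a peak, 18 had one within 1 kb of a TSS and 16 had one there that was not of constant height. Sharpin, whose product binds Shank proteins, was the partner without a peak. The median number of peaks was 16.5 and the median of the highest maximum signal per gene 247.5, against 260 for the 10 scaffold genes and 120 over all protein-coding genes. Kalrn, a guanine nucleotide exchange factor of dendritic spines, had the most with 82 peaks. Among 17 genes of the presynaptic active zone all had a peak, 15 had one within 1 kb of a TSS and 13 had one there that was not of constant height. Their medians were 9 peaks and a highest signal of 254. Erc2, an active zone scaffold, had the most with 78, and Unc13a, a vesicle priming factor, the highest at 593. The median highest signal of the scaffold genes, 260, lay beside those of both lists, 247.5 and 254. For the same 3 counts, in that order, the shares over all protein-coding genes were 71.0%, 41.6% and 28.3%. The median length was 106.1 kb for the partners and 195.7 kb for the active zone genes, against 17.43 kb over all protein-coding genes. The median gene-body density was 9.03 peaks per 100 kb for the partners and 8.29 for the active zone genes. It was 11.8 for the scaffold genes and 3.95 over all protein-coding genes. The part of length in these counts and densities was not tested, and no difference between the lists was tested.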

How the data were processed

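CUT&Tag was made from hippocampus with anti-FLAG and IgG, 1 library each. According to the labels' protocols, reads were first trimmed, and Bowtie2 placed them on mm10. The authors then dropped duplicates and reads of low quality, and SEACR found peaks over the IgG library. Tool versions and SEACR settings are not given in the sources used here. The signal columns deposited by the authors hold the total and maximum coverage of each peak as whole numbers, and how coverage was scaled is not stated. Depth is unknown, and the IgG library was not analysed here. The authors' annotation gives the gene, class and distance to the TSS of the region of maximum signal.

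From these files, peaks were taken by assigned symbol, and protein-coding genes without a peak were counted as 0. The genome was GRCm38.p6 with GENCODE M21, the same build. All peaks of the main chromosomes lay within its lengths. Windows of 200 bp were centred on the region of maximum signal, and motifs were searched on both strands. Gene-body density counts any overlapping peak. Intervals given with shares are Wilson 95% intervals, which cover counting error over peaks only. No test was made. Overlap, merging and motif code was tested on simulated data. Python 3.11.15, pandas 2.3.3 and pysam 0.24.0 were used.

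The text names all 10 members and for each its highest peak, its peak with the largest total signal and its peak nearest to a TSS, in each comparison list the gene with the most peaks and that with the highest signal, and the 2 neighbours on either side of the member with the highest summed total signal. Some genes that this rule names are not reported here. Other peaks, neighbouring genes and Sharpin were named as well, chosen after their values were seen. The members, lists and constant-height measure were chosen with earlier results of these data known.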

Additional observations from a re-analysis of the deposited data

How the results depend on the processing

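Results were recomputed with stricter or merged peaks and with other distances, windows and assignments. Chosen after seeing the data were runs without Dlg2 and Shank2, and near-TSS counts limited to peaks assigned to a protein-coding transcript. No paired analysis was possible because each antibody has 1 library. Of the 57 recomputed values, 34 stayed close to the reported one and 23 moved. Close means within the counting interval for shares, 1 SD for GC content, 1.5 times for counts and density, and the same rounded value for the share of total signal. For peaks above the median maximum signal the count was 123, the density 5.91 per 100 kb, the intron share 56.9%, the constant-height share 47.2% and the share of total signal 0.288%. Without constant-height peaks these were 85, 4.03 per 100 kb, 52.9% and, for total signal, 0.295%, with 22.4% of peaks near a TSS and the insulin response sequence in 7.06%. Over all annotated peaks not of constant height, 8481 of 36567 summit windows belonged to peaks near a TSS. The insulin response sequence was in 7% of these 36567 windows. Peaks at least 200 bp wide gave a constant-height share of 50.9% and 0.269% of total signal. Peaks in the gene body or 5 kb upstream gave 0.264%. The share near a TSS was 11.1% within 500 bp, 26.4% within 3 kb and 8.94% for peaks assigned to a coding transcript. This last share leaves out peaks assigned to a non-coding start, even where a coding start lay within 1 kb. Windows of 400 bp held the insulin response sequence in 19.1%. Without Dlg2 and Shank2 there were 83 peaks, 0.145% of total signal, 34.9% in introns, 33.7% near a TSS and 53.0% of constant height. Smaller sets of peaks, wider windows and longer distances change these values by construction. All 10 genes kept a peak near a TSS under most alternatives run for that count with all 10 genes. The only exceptions were peaks above the median signal (9) and peaks assigned to a coding transcript (9). Depth is unknown, and 1 library gives no error between animals.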
